A study of Mus musculus with 30 samples.

Results

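Ribosome biogenesis was followed through 45 genes whose products build ribosomes in the nucleolus, in sorted mouse B cells. The 45 symbols were chosen by function, with earlier results of these data known. Of these, 42 had an array probe set with their symbol alone and were analysed, out of 19937 genes measured. Npm3 and Noc2l matched no probe set by symbol, and Ppan shared its probe set with another gene, so these 3 were not analysed here. All 42 passed the filter on dim genes in both experiments.

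All cells came from CeGFP BALB/c mice, which carry an IRES-GFP knock-in in the 3' untranslated region of membrane IgE. The mice were infected with Nippostrongylus brasiliensis, a gut nematode that drives strong IgE responses, and cells of the mesenteric lymph nodes were taken for sorting at day 10. GFP therefore marks IgE cells, and also IgG1 cells that rearranged to the epsilon locus on their non-productive heavy chain chromosome. Each array held RNA from a pool of 3 mice, and triplicates came from independent sorts. Naive cells (3 arrays) were B220+ CD95- CD138- and negative for IgG1 and IgE, and are labelled as coming from infected mice too. Germinal centre (GC) cells were B220+ CD95+ CD138- and were IgE+ GFP+ (3), IgG1+ GFP+ (3) or IgG1+ GFP- (3). Plasma cells (PC) were CD95+ CD138+ and were IgE+ GFP+ (4) or IgG1+ GFP+ (2). A second experiment split IgG1 GC cells into a dark zone (DZ; CXCR4 high, CD86 low) and a light zone (LZ; CXCR4 low, CD86 high), each GFP+ and GFP-, with 3 arrays per group.

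Ribosomes are assembled in the nucleolus. RNA polymerase I transcribes the ribosomal RNA precursor, small nucleolar ribonucleoproteins (snoRNPs) modify it, and separate sets of assembly factors cut and fold it into the small and the large subunit. Cells that grow and divide need many new ribosomes, and the transcription factor MYC is known to activate many of these genes. GC B cells divide rapidly, mainly in the dark zone, while plasma cells secrete antibody and need a large translation capacity.

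MYC binds the E-box CACGTG, a motif that reads the same on both strands, so the promoters of the members were searched for it. Promoters (250 bases before to 50 after the start, RefSeq, GRCm38.p6) were given for 38 members, and 6 of them (15.8%) held the motif, against 2187 of 27025 genes (8.09%). The motif windows are shown because 3 of these members rose in GFP+ IgG1 GC cells against naive cells and 3 were not called there. Capitals mark the motif, and each window is printed in the gene's direction.
Nop2: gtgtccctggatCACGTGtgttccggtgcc
Pes1: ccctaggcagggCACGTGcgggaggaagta
Wdr43: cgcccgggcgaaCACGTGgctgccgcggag
Utp20: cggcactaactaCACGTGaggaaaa
Mybbp1a: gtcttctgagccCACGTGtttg
Imp4: acggtcttagacCACGTGacatcccaaatc
The first 3 windows belong to the members that rose. They lie at chr6:125131811-125131840 (+), chr11:3963965-3963994 (+) and chr17:71616220-71616249 (+). The others lie at chr10:88826765-88826789 (-), chr11:72441355-72441376 (+) and chr1:34439696-34439725 (+). The motif was in 3 of 16 measured members called higher in GFP+ IgG1 GC cells (18.8%) and in 3 of 19 not called (15.8%). A match describes these letters only, and no binding was measured.

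Values are log2 signals of the authors' robust multi-array averaging (RMA). A difference is a log2 difference from limma's fit over all arrays of an experiment, with its standard error (SE). A gene was called higher or lower at a Benjamini-Hochberg adjusted p under 0.05 over all genes tested (12098 genes in experiment 1, 11050 in experiment 2). The summed markers followed the labels, while single markers did not all do so. The summed signal of 4 measured GC markers was 12.28 to 12.62 on the GC arrays of the first experiment and 9.93 at most on its naive and PC arrays. That of 4 PC markers was 12.3 to 12.66 on PC arrays and 10 at most on the others. For 3 measured naive markers it was 12.18 to 12.64 on naive arrays and 11.55 at most on the others of that experiment. Fcer2a was at 10.931 to 11.455 in these GC cells, near the 11.745 to 12.022 of naive cells. Gcsam was at 8.145 to 8.638 in IgE PC and at 6.228 and 5.498 in IgG1 PC. Fas was as high in IgE PC (8.57 to 8.83) as in GC cells (8.07 to 9.01). Array medians spanned 5.284 to 5.473 and were highest on the naive arrays (5.385 to 5.473). Mean correlations with the own group were lowest on the naive arrays, which enter every comparison with naive cells (0.936, 0.949 and 0.949 on replicates 1 to 3). The IgG1 PC pair correlated at 0.962. Within their own groups, naive replicate 1 and GFP+ IgG1 GC replicate 3 (0.975, against 0.982 on replicates 1 and 2) stood apart.

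The members as a group were low in naive cells and highest in GC cells. The median of the 42 members was 7.156, 7.494 and 7.253 on naive arrays 1 to 3. It was 7.557 to 8.007 on the 9 GC arrays, all above the naive arrays. IgG1 PC arrays had medians of 7.372 and 7.453, inside the naive range, and IgE PC arrays 7.36, 7.677, 7.893 and 7.322. By group mean, 25 of the 42 members were lowest in naive cells, 13 in IgG1 PC and 4 in IgE PC, and none was lowest in a GC group. GFP- IgG1 GC cells had the highest mean for 17 members, GFP+ IgG1 GC for 7, IgE GC for 8, IgG1 PC for 5, IgE PC for 3 and naive cells for 2. In bulk RNA, fewer cells that express a gene and less RNA per cell cannot be told apart. Normalization also brings the arrays toward a common distribution, though their medians still spanned 5.284 to 5.473.

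**Figure D1:**
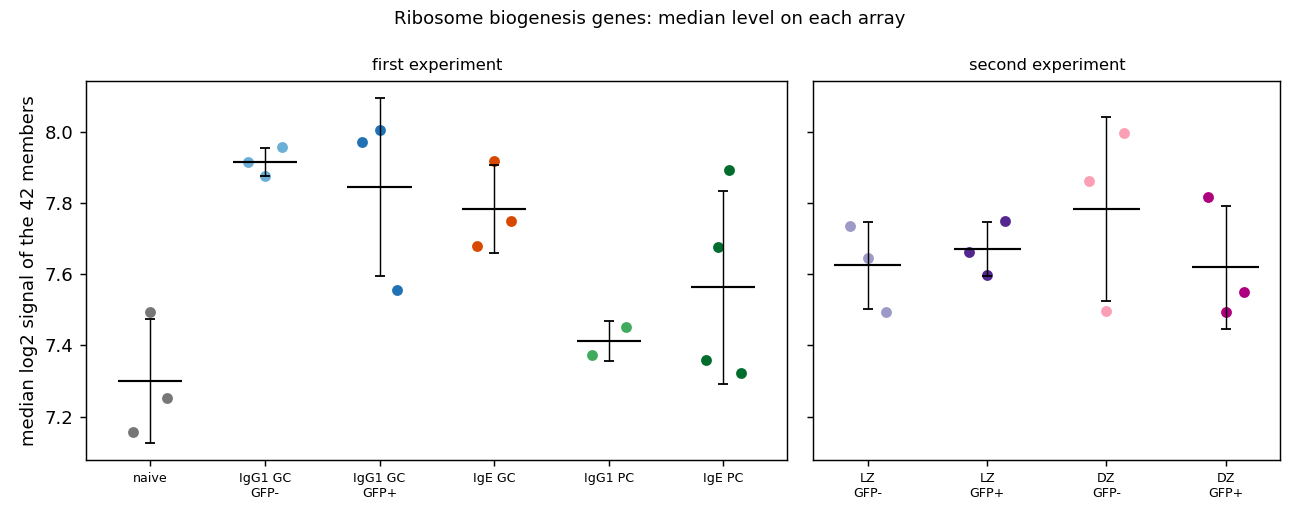
Median log2 signal of the 42 members on each array (points), with group mean and SD (bars), by group in both experiments. All 9 GC arrays of the first experiment, at 7.557 to 8.007, lie above the naive arrays, at 7.156 to 7.494, while the DZ and LZ arrays overlap.

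Entry into the GC was described first. In GC cells 14 to 19 of 42 members rose against naive cells and none fell. In IgE GC cells 14 rose, where 19.3% of all genes tested were called higher, and the median difference was 0.55 against 0.06 over all genes. In GFP+ IgG1 GC cells 19 rose (16.8% of all genes), with a median of 0.62 against 0.02. In GFP- IgG1 GC cells 17 rose (20.5% of all genes), with a median of 0.63 against 0.07. The share of members called lower was 0 each time, against 7.4%, 6.43% and 9.35% of all genes. These 3 comparisons share the naive arrays, so their overlap is not separate evidence. In all, 21 members rose in at least 1 GC group. The share of all genes that did so, or that rose in all 3, is not given here. The 12 members called in all 3 were Tcof1, Nolc1, Ncl, Npm1, Ddx21, Nop58, Dkc1, Gar1, Noc4l, Pes1, Rrp1b and Nip7. Nolc1, Ncl and Noc4l kept their calls in each GC group under every alternative setting run. Of the called members, 5 of 14 (IgE), 7 of 19 (GFP+ IgG1) and 12 of 17 (GFP- IgG1) kept their call when any single array was left out. The IgE count was 5 without IgE GC replicate 2, 9 without naive replicate 3 and 8 after further quantile normalization. The GFP+ count was 8 without GFP+ replicate 2 and 9 without GFP+ replicate 1. With only the compared groups in the fit these counts were 8 and 6.

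Of the 5 members of RNA polymerase I transcription, 1 rose in each GC group. That is near the 19.3%, 16.8% and 20.5% of all genes called higher in IgE, GFP+ IgG1 and GFP- IgG1 GC cells. The called member was Tcof1, the treacle protein, a nucleolar factor of ribosomal DNA transcription. Its signal was 7.25, 7.53 and 7.12 on the naive arrays. It was 7.79, 7.97 and 7.89 on the IgE GC arrays, 8.01, 7.95 and 7.99 in GFP+ and 8.13, 7.98 and 8.21 in GFP- IgG1 GC cells. Every GC array lay above every naive array, and the differences were 0.58 (SE 0.16), 0.68 (0.16) and 0.81 (0.16), with limma adjusted p of 0.0141, 0.00557 and 0.00152. The IgE GC call was lost without IgE GC replicate 2 (adjusted p 0.0567) or naive replicate 3 (0.0585). Of the polymerase subunits, Polr1a, the largest, differed by 0.13 (SE 0.20), 0.10 (0.20) and -0.03 (0.20) in the same order. Polr1b, Polr1e and Mybbp1a, a nucleolar protein that binds MYB, lay above naive by 0.15 to 0.73 and were not called in a GC group.

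Of the 5 measured abundant nucleolar proteins, 4 rose in each GC group (19.3%, 16.8% and 20.5% of all genes in IgE, GFP+ IgG1 and GFP- IgG1 GC cells). Ncl, nucleolin, which binds the ribosomal RNA precursor, was at 9.83, 10.20 and 9.93 in naive cells. It reached 10.64, 10.98 and 10.66 in IgE GC cells and 10.74 to 11.08 in IgG1 GC cells, so that no GC array overlapped a naive one. The differences were 0.78 (SE 0.17, adjusted p 0.00253, limma), 0.94 (0.17, 0.000636) and 0.97 (0.17, 0.000439) in IgE, GFP+ IgG1 and GFP- IgG1 GC cells. Nolc1, a phosphoprotein that chaperones snoRNPs, was at 7.28, 7.08 and 7.33 in naive cells and at 8.28, 8.11 and 8.36 in IgE GC cells. Its differences, 1.02 (SE 0.21), 1.18 (0.21) and 1.06 (0.21), amount to at least 2.03-fold on the linear scale. The RNA helicase gene Ddx21 rose by 0.56 to 0.76 and Npm1, nucleophosmin, by 0.59 to 0.77. Both depended on single arrays. In IgE GC cells Ddx21 was lost without any one IgE GC array, naive replicate 1 or naive replicate 3 (adjusted p 0.0523 to 0.0942). Npm1 was lost there without naive replicate 1 or 3 or without IgE GC replicate 2 or 3 (0.0633 to 0.127), and in GFP+ IgG1 GC cells without naive replicate 1 or 3 or without GFP+ replicate 1 or 2 (0.0598 to 0.0943). Gnl3, nucleostemin, a nucleolar GTPase, was not called in GC cells, at 0.18 (SE 0.29), 0.62 (0.29) and 0.44 (0.29).

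The snoRNP proteins were split between core members. Nop58, a core protein of the box C/D particles that guide ribose methylation, rose in all 3 GC groups. It was at 7.77, 7.76 and 7.39 in naive cells and at 8.35, 8.92 and 8.29 in IgE GC cells, with no overlap. Its differences were 0.88 (SE 0.28), 1.07 (0.28) and 1.06 (0.28), and the IgE call was lost without IgE GC replicate 2 (0.68, adjusted p 0.129) or naive replicate 3 (0.76, 0.0916). The GFP+ call was lost without GFP+ replicate 2 (0.88, 0.0582). Nop56, its partner in the same particle, differed by 0.45, 0.13 and 0.15 (SE 0.22 each) and was not called. Fbl, the methyltransferase fibrillarin, was called in GFP- IgG1 GC cells alone (0.65, SE 0.24, adjusted p 0.049), and its other probe set gave 0.08 there.

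Among the box H/ACA proteins, which serve pseudouridylation, Dkc1, the pseudouridine synthase dyskerin, rose most. It was at 6.0, 6.76 and 5.80 in naive cells and at 7.30, 7.91 and 7.38 in IgE GC cells. In GFP+ IgG1 GC cells it was at 8.09, 8.0 and 6.67, where replicate 3 fell inside the naive range, and in GFP- IgG1 GC cells at 7.62, 7.81 and 7.94. The differences were 1.34 (SE 0.39), 1.4 (0.39) and 1.60 (0.39), with limma adjusted p of 0.0167, 0.0143 and 0.00571. The IgE call was lost without IgE GC replicate 2, naive replicate 1 or naive replicate 3 (adjusted p 0.0538 to 0.0775). That in GFP+ IgG1 GC cells was lost without naive replicate 3 or without GFP+ replicate 1 or 2 (0.0592 to 0.0776). Gar1 rose by 0.61, 0.61 and 0.73 (SE 0.18 each), from 6.98, 7.20 and 7.54 in naive cells to 7.63, 7.92 and 8.01 in IgE GC cells. Its IgE call was lost without naive replicate 1 or without IgE GC replicate 2 or 3 (adjusted p 0.0691 to 0.0856), and its GFP+ call without naive replicate 1 or without GFP+ replicate 1 or 2 (0.0771 to 0.122). Nhp2 lay above naive by 0.97, 1.06 and 1.15 and was called in both IgG1 GC groups, calls lost without GFP+ replicate 1 or 2, GFP- replicate 2, naive replicate 2 or naive replicate 3 (adjusted p 0.0571 to 0.205). Nop10, the smallest core protein, differed by 0.03 to 0.26 and was not called.

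Of 12 small subunit factors, 1 rose in IgE GC cells, 3 in GFP+ and 3 in GFP- IgG1 GC cells, with medians of 0.17, 0.33 and 0.33. Among all genes 19.3%, 16.8% and 20.5% were called higher there, and the role groups were not tested against each other. Noc4l, a factor of small subunit assembly, was the one called in all 3. It was at 7.30, 7.0 and 7.13 in naive cells, at 8.32, 8.04 and 8.13 in IgE GC cells, at 7.91, 8.53 and 8.41 in GFP+ and at 8.14, 8.27 and 7.97 in GFP- IgG1 GC cells. The lowest GC array was thus above the highest naive array, and the differences were 1.02 (SE 0.22), 1.14 (0.22) and 0.98 (0.22), with limma adjusted p of 0.00218, 0.000989 and 0.003. Bysl, bystin, was called in both IgG1 GC groups (0.85 and 1.16), Wdr43 in GFP+ IgG1 GC cells (0.61) and Ddx10 in GFP- IgG1 GC cells (1.07). The Bysl call in GFP+ cells and the Wdr43 call were each lost on leaving out any of 4 single arrays, and the Ddx10 call without naive replicate 1 (0.69, adjusted p 0.0568). The other small subunit factors Utp15, Utp20, Nol6, Nop14, Rrp9, Imp4, Rrp12 and Heatr1 were not called in a GC group.

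Of 13 measured large subunit factors, 5 rose in IgE GC cells, 7 in GFP+ and 4 in GFP- IgG1 GC cells (19.3%, 16.8% and 20.5% of all genes). Pes1, of the PeBoW complex that processes the large subunit RNA, was at 5.60, 6.91 and 6.92 in naive cells, where replicate 1 was low. It was at 7.68, 8.15 and 7.41 in IgE GC cells, and at 7.37 to 8.54 on the 6 IgG1 GC arrays, all above the naive arrays. The differences were 1.27 (SE 0.39), 1.44 (0.39) and 1.55 (0.39). In IgE GC cells the call was lost without naive replicate 1 (0.83, adjusted p 0.124) or IgE GC replicate 2 (1.06, 0.103), and in GFP+ IgG1 GC cells without naive replicate 1 (1.00, 0.0691) or GFP+ replicate 1 (1.13, 0.074). Its complex partners Bop1 and Wdr12 lay above naive by 0.32 to 0.48 and by 1.00 to 1.09 and were not called. Nip7, a factor of large subunit maturation, rose by 0.97 (SE 0.16, adjusted p 0.000343, limma) in IgE GC cells, from 6.48, 6.79 and 6.58 to 7.68, 7.34 and 7.72. Its GFP+ call (0.61, SE 0.16) was lost without GFP+ replicate 2 (0.49, 0.0749). Rrp1b rose by 1.13, 1.02 and 0.90, and Wdr74 by 0.67 and 0.72 in IgE and GFP+ IgG1 GC cells. Nop2, an rRNA methyltransferase, rose in both IgG1 GC groups (0.88 and 0.62, SE 0.20 each). Rrp1b in IgE GC cells and Nop2 and Wdr74 in GFP+ cells kept their call without any single array. Wdr74 in IgE GC cells was lost without IgE GC replicate 2 (0.54, adjusted p 0.077), Nop2 in GFP- cells without naive replicate 1 (0.45, 0.12), GFP- replicate 1 (0.61, 0.071) or GFP- replicate 3 (0.53, 0.105). Rrp1b in both IgG1 GC groups was lost without any one of several arrays (adjusted p 0.0509 to 0.114).

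The largest difference of any member belonged to Rrs1, a factor that brings 5S RNA into the large subunit, and it rested on 1 naive array. Rrs1 was at 3.55, 6.37 and 6.02 on the naive arrays. It was at 7.67, 7.46 and 7.54 in IgE GC cells, at 7.39, 8.19 and 6.94 in GFP+ and at 7.21, 7.05 and 7.49 in GFP- IgG1 GC cells. The difference in IgE GC cells was 2.25 (SE 0.75, limma adjusted p 0.0348), and without naive replicate 1 it was 1.36 (adjusted p 0.185). In GFP+ IgG1 GC cells it was 2.20 (SE 0.75, 0.0426) and 1.32 without that array (0.22). The GFP+ call was also lost without GFP+ replicate 1 (2.25, limma adjusted p 0.0888) or 2 (1.86, 0.154). Without any one IgE GC array the difference in IgE GC cells stayed between 2.19 and 2.29 but missed the threshold (adjusted p 0.077 to 0.0811). Mrto4 was called in GFP+ IgG1 GC cells (1.08, SE 0.31), where naive replicate 1 was again the lowest array at 6.31. Without that array the difference was 0.75 (limma adjusted p 0.0917), and the other probe set of Mrto4 gave -0.26. The Mrto4 call was also lost without GFP+ replicate 1 (1.07, 0.0501) or 2 (1.04, 0.0593).

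**Figure D2:**
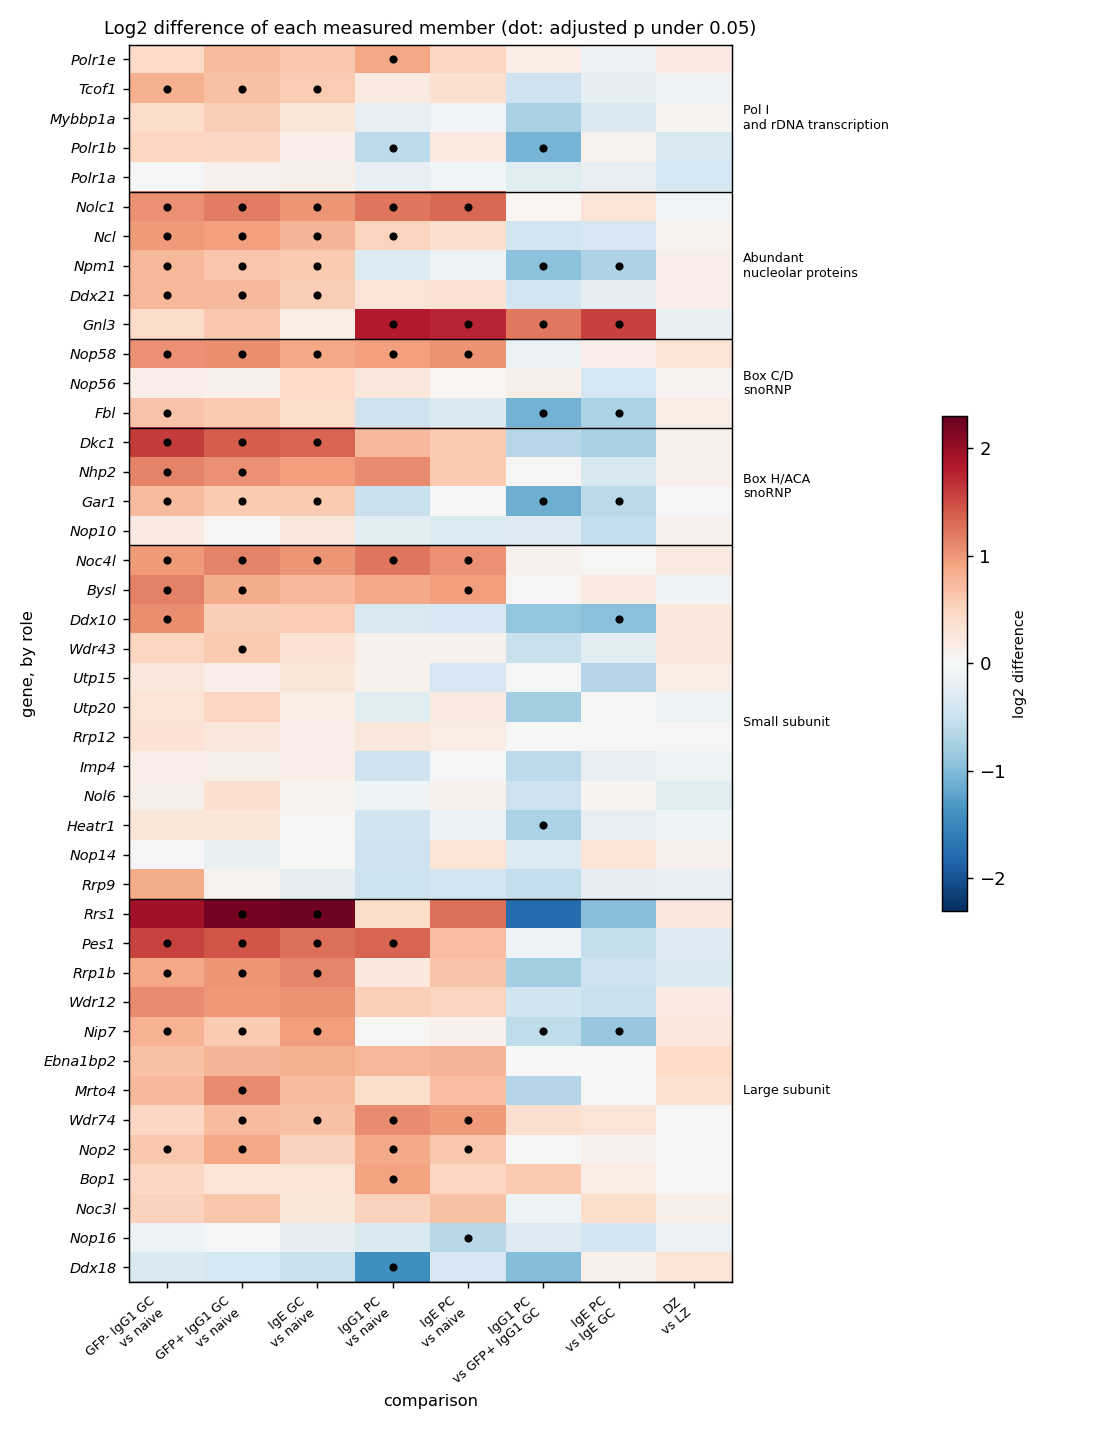
Log2 difference (colour) of each of the 42 measured members in 8 comparisons, with members grouped by role and a dot where the adjusted p was under 0.05. The 3 GC columns hold 14 to 19 dots and no blue one, the PC minus GC columns are mostly blue, and the DZ minus LZ column has no dot.

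Other cell types and growth markers moved with these comparisons. The summed log2 signal of 5 macrophage and dendritic cell markers was 8.76 to 9.5 on naive arrays, 6.92 to 7.58 on GC arrays and 6.99 to 8.07 on PC arrays. Of these, 2 markers (Tyrobp and Siglech) lay above the array median on all naive arrays and 1 at most in the other groups. Stromal and endothelial markers summed to 9.52 to 10.49 on naive, 7.83 to 8.79 on GC and 7.59 to 8.11 on PC arrays. Pecam1 carried that sum, at a mean of 9.56 in naive and 7.18 to 7.87 in GC cells, while the endothelial gene Cdh5 was at 4.83 in naive and 4.96 to 5.25 in the other groups. The sum of 4 measured T cell markers overlapped between groups (7.63 to 8.2 on naive and 7.17 to 8.24 on GC arrays). Cd8a, however, was at 5.97 to 6.12 on naive arrays and at 5.64 at most on the other arrays of the first experiment. Neutrophil and eosinophil markers summed to 6.15 to 7.64 on naive and 5.89 to 6.65 on GC arrays. Among them S100a9 was at 6.03 and 6.24 on naive replicates 2 and 3, and S100a8 at 6.46 on replicate 3. No natural killer or basophil marker was above the array median on all arrays of a group in the first experiment. The part of these cells in the differences from naive cells was not tested. Mki67, which marks cycling cells, was at 10.98, 10.99 and 10.96 in IgE GC cells. It was at 4.87, 4.89 and 4.97 in naive cells, below the array medians there, so its difference of 6.06 (SE 0.12) is measured against a signal near the floor. Myc itself was not called, at -0.70 (SE 0.32), -0.21 (0.32) and -0.38 (0.32) in IgE, GFP+ IgG1 and GFP- IgG1 GC cells.

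Further genes of the same pathway, taken from 5 lists that hold none of the members, were set beside them. In IgE GC cells against naive cells, 11 of 38 other large subunit factors rose and 1 fell, with a median of 0.51. Among all genes 19.3% were called higher and 7.4% lower there, and the lists were not tested against these shares. Of 34 other small subunit factors 7 rose, near the share of all genes, and none fell (median 0.50). Of 12 other polymerase I genes 4 rose and 1 fell (0.37). Of 20 RNA exosome and RNase MRP genes 2 rose, below the share of all genes, and none fell (0.46). Nifk, a partner of the Ki-67 protein in the nucleolus, rose by 1.92 (SE 0.41), and Brix1 by 1.21 (0.41). Taf1d and Polr1d, of polymerase I initiation and of the enzyme itself, rose by 1.49 (SE 0.19) and 1.58 (0.41), and Taf1a fell by 1.38 on the log2 scale (SE 0.39). The exosome genes Exosc9 and Exosc3 rose by 1.98 (0.32) and 1.59 (0.29). Ribosomal protein genes differed little, since 4 of 56 rose and none fell, with a median of 0.02 that compares with 0.06 over all genes. Rps27l, a paralogue of Rps27 known as a p53 target, led them at 1.84 (SE 0.31). In GFP+ IgG1 GC cells 8 of the 38 large subunit factors rose and 1 fell (16.8% and 6.43% of all genes). The median over the 56 ribosomal protein genes was -0.02 there.

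Plasma cells were then set against naive cells. In IgE PC 7 members were higher and 1 was lower than in naive cells, where 23% and 14.1% of all genes were called. In IgG1 PC 10 were higher and 2 lower (17.1% and 12.2% of all genes). Further quantile normalization of the arrays gave 7 higher and 4 lower in IgE PC, and 9 higher and 6 lower in IgG1 PC. The median difference was 0.33 in IgE PC and 0.25 in IgG1 PC, with -0.01 and 0.01 over all genes. Of the 7 and 10 higher members, 6 were common to both, and 4 of the 7 were also among the 14 called in IgE GC cells. These comparisons share the naive arrays, and the stages were compared directly only as plasma cells against GC cells. The members that rose in both PC groups were Gnl3, Nolc1, Nop58, Noc4l, Wdr74 and Nop2, and Bysl rose in IgE PC alone (0.96, SE 0.28), a call lost without naive replicate 3 (0.81, adjusted p 0.0584). Nop2 was lost without naive replicate 1 in IgE PC (0.46, 0.0771) and without IgG1 PC replicate 1 in IgG1 PC (0.66, 0.0975). Polr1e, Ncl, Pes1 and Bop1 were called in IgG1 PC, which had 2 arrays. Each of these 4 calls was lost without IgG1 PC replicate 1, and Polr1e moved from 0.89 to 0.24 without it (adjusted p 0.661). No box H/ACA member was called in either PC group.

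Nolc1, Nop58 and Noc4l were higher than naive in all 5 activated groups. Nolc1 was at 8.58, 8.37, 9.02 and 8.22 in IgE PC and at 8.71 and 8.20 in IgG1 PC, above every naive array. Its differences were 1.31 (SE 0.20, limma adjusted p 5.45e-05) and 1.22 (0.24, 0.000795). Noc4l was at 7.84, 8.25, 8.70 and 8.0 in IgE PC and at 8.56 and 8.19 in IgG1 PC, with differences of 1.05 (SE 0.20) and 1.23 (0.24). Nop58 was at 8.45, 9.21, 8.85 and 8.18 in IgE PC and at 8.32 and 8.84 in IgG1 PC, and its differences were 1.03 (SE 0.26) and 0.94 (0.31). The IgG1 PC call of Nop58 was lost without IgG1 PC replicate 2 (0.68, adjusted p 0.255) or naive replicate 3 (0.81, 0.0906). Wdr74 rose by 0.98 (SE 0.18) and 1.09 (0.21).

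Members lower in plasma cells than in naive cells were few, and each depended on single arrays. Nop16, a large subunit factor, was at 7.09, 7.48, 7.85 and 7.28 in IgE PC and at 8.40, 7.68 and 8.12 in naive cells, so that the groups overlapped. It fell by 0.65 on the log2 scale (SE 0.20, limma adjusted p 0.0191), and the call was lost without IgE PC replicate 1, naive replicate 1 or naive replicate 3 (0.0542 to 0.101). Ddx18, a helicase of large subunit assembly, was at 7.76 and 6.95 in IgG1 PC and at 9.67, 8.36 and 8.24 in naive cells. It fell by 1.4 (SE 0.43, adjusted p 0.021), and by 0.95 without naive replicate 1 (0.0862) or 1.00 without IgG1 PC replicate 2 (0.222). Ddx18 was the member with the lowest differences in GC cells too, at -0.51, -0.40 and -0.33, where naive replicate 1 was its highest array. Polr1b, the second largest polymerase I subunit, was at 5.55 and 5.22 in IgG1 PC and at 5.64, 6.19 and 6.13 in naive cells. Its fall of 0.60 (SE 0.22, 0.0476) was lost without either IgG1 PC array, naive replicate 2 or naive replicate 3 (adjusted p 0.0534 to 0.307).

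**Figure D3:**
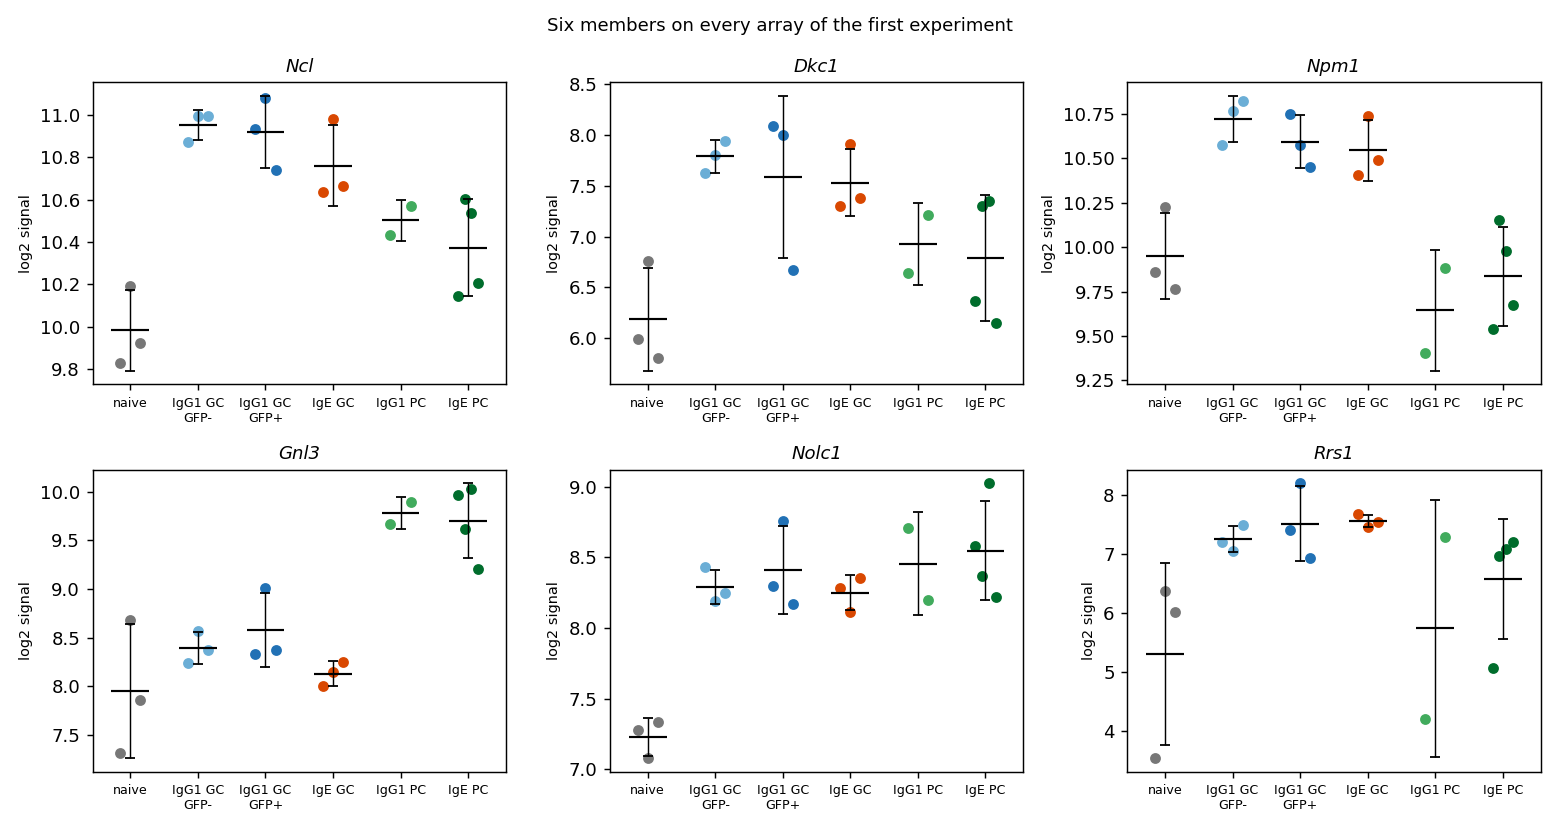
Log2 signal of 6 members on every array of the first experiment (points), with group mean and SD (bars). Ncl, Dkc1 and Npm1 are highest in GC cells, Gnl3 is highest in plasma cells (9.20 to 10.03), Nolc1 is low in naive cells alone, and Rrs1 has single low arrays in naive cells (3.55), IgG1 PC (4.20) and IgE PC (5.07).

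The step from GC cell to plasma cell was compared within each isotype, and these 2 comparisons share no arrays. The share of members called lower in plasma cells was near that of all genes. In IgE PC against IgE GC cells 5 members were lower and 1 was higher, where 13.4% and 10.2% of all genes were called, and the median was -0.21 against -0.03 over all genes. In IgG1 PC against GFP+ IgG1 GC cells 6 were lower and 1 higher (13.1% and 8.32% of all genes), with a median of -0.43 against -0.01. By sign, 24 of 42 members were below 0 in both isotypes, 7 were above 0 in both and 11 differed in sign. Npm1, Fbl, Gar1 and Nip7 were called lower and Gnl3 higher in both isotypes. Mki67 was lower in IgE PC than in IgE GC cells (-0.37, SE 0.12, limma adjusted p 0.0266) and not called in IgG1 cells (-0.20, SE 0.14). The IgG1 count was 12 without GFP+ IgG1 GC replicate 3, the array that stood apart in its group, 4 without replicate 1 of that group and 3 without IgG1 PC replicate 1. The IgE count was 2 without IgE GC replicate 2.

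Gnl3 was the one member called higher in plasma cells than in GC cells. Nucleostemin is known for keeping stem and tumour cells in cycle and shuttles in and out of the nucleolus. Its signal was 9.96, 9.61, 10.03 and 9.20 in IgE PC and 9.66 and 9.89 in IgG1 PC. It was 8.0, 8.14 and 8.25 in IgE GC cells, 8.33, 9.01 and 8.38 in GFP+ and 8.23, 8.57 and 8.37 in GFP- IgG1 GC cells, and 7.31, 8.68 and 7.86 in naive cells. Every PC array was thus above every other array of the first experiment. The difference was 1.57 (SE 0.27, limma adjusted p 0.000357) for IgE and 1.21 (SE 0.33, 0.0134) for IgG1. The IgG1 call was lost without GFP+ IgG1 GC replicate 1 (1.09, adjusted p 0.0522) or IgG1 PC replicate 2 (1.09, 0.0957). Against naive cells Gnl3 was 3.36-fold higher in IgE PC and 3.55-fold higher in IgG1 PC, calls that held under every setting run.

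The members called lower in plasma cells of both isotypes came from different steps. Npm1, of the granular part of the nucleolus, was at 9.54, 10.15, 9.98 and 9.68 in IgE PC against 10.41, 10.74 and 10.49 in IgE GC cells. In IgG1 cells it was at 9.40 and 9.88 against 10.75, 10.57 and 10.45. Neither isotype overlapped, and it fell by 0.71 (SE 0.18, limma adjusted p 0.00803) and by 0.95 (SE 0.22, 0.00417). The calls were lost without IgE GC replicate 2 (adjusted p 0.052) and without IgG1 PC replicate 1 (0.0803). Gar1 was at 7.21, 7.31, 7.13 and 7.29 in IgE PC, at 6.61 and 6.86 in IgG1 PC and at 7.93, 8.12 and 7.50 in GFP+ IgG1 GC cells. It fell by 0.62 (SE 0.17) and by 1.11 (SE 0.20, adjusted p 0.000704), and the IgE call was lost without IgE GC replicate 2 (0.0549) or 3 (0.0695). Nip7 was at 6.55, 6.82, 6.71 and 6.77 in IgE PC and at 6.70 and 6.58 in IgG1 PC, back inside the naive range of 6.48 to 6.79 in all but IgE PC replicate 2. It fell by 0.87 (SE 0.15, adjusted p 0.000417) in IgE cells under every setting run. In IgG1 cells it fell by 0.58 (SE 0.18, 0.0307), which was lost without GFP+ replicate 1 or 2 or either IgG1 PC array (adjusted p 0.076 to 0.159).

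Fbl depended on the probe set. The one used was at 9.13, 9.57, 9.55 and 9.20 in IgE PC against 10.03, 10.06 and 10.18 in IgE GC cells, and at 8.70 and 9.71 in IgG1 PC against 10.25, 10.38 and 10.23. It fell by 0.73 (SE 0.22, limma adjusted p 0.0233) and by 1.08 (SE 0.26, 0.00691). The other probe set of Fbl gave 0.44 and -0.39, not called, and it was at 10.92 on IgE PC replicate 1 but at 6.18 to 6.69 on the other 3 arrays. The IgE call was lost without any one IgE GC array, IgE PC replicate 1 or IgE PC replicate 4 (adjusted p 0.0539 to 0.0807), and the IgG1 call without IgG1 PC replicate 1 (0.177).

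Single calls made up the rest. Ddx10, a helicase of small subunit assembly, was at 6.43, 6.86, 6.83 and 6.42 in IgE PC against 7.66, 7.92 and 7.22 in IgE GC cells and fell by 0.97 (SE 0.27, limma adjusted p 0.0143). This call was lost without IgE GC replicate 1 (0.051) or 2 (0.0849), and in IgG1 cells Ddx10 had a like difference of -0.91 (SE 0.32, 0.0551). Polr1b was at 5.55 and 5.22 in IgG1 PC against 6.39, 6.54 and 6.46 in GFP+ IgG1 GC cells and fell by 1.08 (SE 0.22, 0.00166) under every setting run. In IgE PC it was at 6.47, 5.82, 6.47 and 6.09 against 6.04, 6.22 and 6.16, a difference of 0.07 (SE 0.18). Heatr1 fell by 0.73 in IgG1 cells (SE 0.24, 0.0355), a call lost without GFP+ replicate 1 or 2 or either IgG1 PC array.

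**Figure D4:**
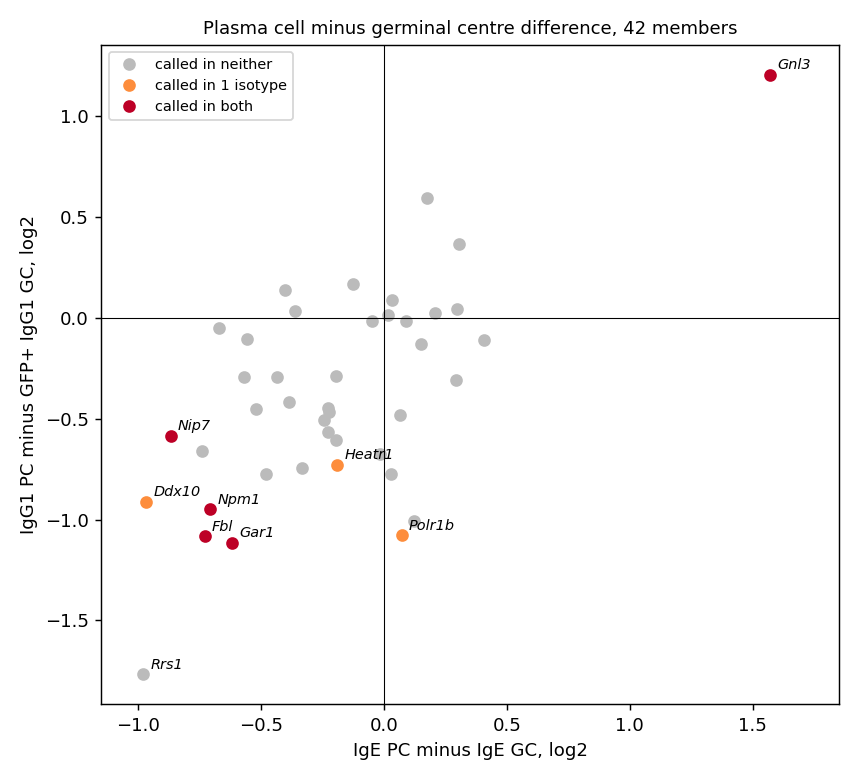
Log2 difference between plasma cells and GC cells for each of the 42 members, IgE on the horizontal and IgG1 on the vertical axis, coloured by the number of isotypes in which it was called. Of the members, 24 lie below 0 on both axes, and Gnl3 alone lies above 1 on both.

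Few other genes of the pathway were called between these stages. Of 38 other large subunit factors, 3 fell and none rose in IgE PC against IgE GC cells (median -0.22, median SE 0.23), and 7 fell and none rose in IgG1 cells (-0.23, SE 0.27). Of 34 other small subunit factors, 2 fell and 1 rose in IgE cells, and 2 fell and none rose in IgG1 cells. These shares lie on both sides of the 13.4% and 13.1% of all genes called lower. Tex10, of a complex that releases the large subunit precursor, was lower in both, by -1.0 (SE 0.29) and -1.66 (0.34). Of 12 other polymerase I genes, 3 fell in IgE and none in IgG1 cells, among them Ubtf, the factor that keeps ribosomal DNA open (-0.51, SE 0.17), in IgE cells. Of 56 ribosomal protein genes, 1 rose and 1 fell in each isotype, with medians of -0.11 and -0.12. Rps27l rose in both, by 0.96 (SE 0.29) and 1.04 (0.35). Myc was lower in IgE PC than in naive cells (-1.10, SE 0.30, limma adjusted p 0.00857), not called in IgG1 PC against naive cells (-0.97, SE 0.36, 0.0527), and not called in either step from GC to plasma cell.

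The isotypes were compared at each stage, the first aim stated for the study. No member was called between IgE GC and GFP+ IgG1 GC cells, where 0% of all 12098 genes were called by limma and 1 member (Nip7, 0.36, SE 0.16) had an unadjusted p under 0.05 (2.18% of all genes). None was called between IgE GC and GFP- IgG1 GC cells (0% of all genes, with 0 members and 1.69% of all genes at that unadjusted p), nor between GFP+ and GFP- IgG1 GC cells (0%, with 0 members and 2.19%). IgE PC and IgG1 PC had no called member either, where 0.959% of all genes were called, and 4 members had an unadjusted p under 0.05 (13% of all genes). These were Polr1b, Nop14, Gar1 and Ddx18, all higher in IgE PC, by 0.83 (SE 0.21), 0.80 (0.25), 0.50 (0.19) and 1.02 (0.41). Polr1b had the smallest adjusted p, 0.0697, and its groups did not overlap. Without IgE PC replicate 2, 1 member was called. The median SE of a member was 0.24 in the GC comparisons and 0.25 between the PC groups. Differences near that size were not detectable, and much larger ones could be missed. Polr1b at 0.83 and Ddx18 at 1.02 were not called between the PC groups. In the test of whether the PC minus GC difference differed between isotypes, no member was called (0.0909% of all genes) and 3 had an unadjusted p under 0.05 (6.79% of all genes). Polr1b had the largest of these differences between isotypes, 1.15 (SE 0.28, adjusted p 0.235). Of the other pathway genes, Nle1, a large subunit factor, was lower in IgE PC than in IgG1 PC (-1.02, SE 0.23, adjusted p 0.0413).

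The zones of the GC were compared in the second experiment, its stated second aim. No member differed between DZ and LZ cells at the threshold, where limma called 6.91% of all genes. At an unadjusted p under 0.05 there were 6 of 42 members, against 21.7% of all genes. The smallest adjusted p of a member was 0.152, the median difference was 0.08 against 0.00 over all genes, and the median SE was 0.15. No member had all DZ arrays above or all below the LZ arrays, as 2.49% and 2.31% of all genes had. Mki67 was 1.55-fold higher in DZ cells (log2 0.63, SE 0.10, adjusted p 0.00197). Myc was lower in DZ cells, by -0.40 (SE 0.11, adjusted p 0.0431). The T cell marker sum was 8.11 to 8.39 in GFP+ and 7.93 to 8.68 in GFP- LZ cells. In DZ cells it was 7.43 to 8.07 in GFP+ and 7.87 to 8.3 in GFP- cells. On GFP- LZ replicate 3 Cd3g was at 7.12 and Cd8a at 6.20. The part of T cells in the zone differences was not tested. Within GFP+ cells no member was called (1.22% of all genes), and none within GFP- cells (2.59%). GFP+ and GFP- cells of the zones did not differ in a called member (0% of all genes, with 1 member and 4.7% of all genes at an unadjusted p under 0.05). The test of whether the zone difference differed with GFP called no member (0%, with 3 members and 4.91% of all genes at that unadjusted p).

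Among the members, Ebna1bp2, a large subunit factor, had the largest difference between the zones. It was at 7.84, 8.88 and 7.70 in GFP+ and 8.03, 7.95 and 8.13 in GFP- DZ cells. In LZ cells it was at 7.92, 7.95 and 7.91 in GFP+ and 7.27, 7.61 and 7.09 in GFP- cells. The zones overlapped through the GFP+ arrays, and the difference was 0.46 (SE 0.18, limma adjusted p 0.152). At the other end Polr1a was lower in DZ cells by -0.40 (SE 0.16, 0.158). Nip7, Wdr43, Nop58 and Ddx18 differed by 0.25, 0.25, 0.30 and 0.30. Members of polymerase I transcription had a median of -0.09, and those of the box C/D particles one of 0.17. Of the other pathway lists, 1 ribosomal protein gene of 56 rose (Rps27l, 0.82, SE 0.16), where 6.91% of all genes were called. So did 1 of 34 other small subunit factors (Dcaf13, 0.46, SE 0.11) and 1 of 18 tested exosome and RNase MRP genes (Exosc1, 0.73, SE 0.16). No other polymerase I gene was called. Among the 38 other large subunit factors Ddx24 and Gnl3l rose in DZ cells (0.49 and 0.41) and Mdn1, a giant ATPase that remodels the large subunit precursor, was lower (-0.67, SE 0.10, adjusted p 0.00219).

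**Figure D5:**
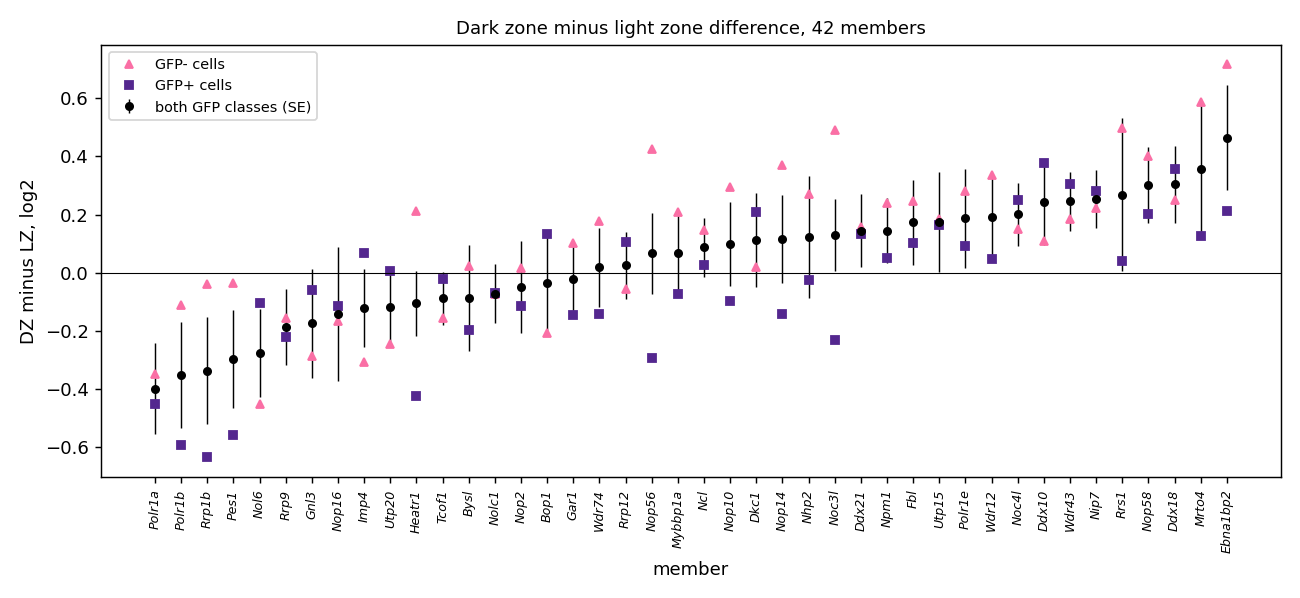
Log2 difference between DZ and LZ cells for each of the 42 members in order of size, with SE over both GFP classes (black) and the difference within GFP- (triangles) and GFP+ (squares) cells. The differences run from -0.40 (Polr1a) to 0.46 (Ebna1bp2), and none was called.

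In all, 14 of the 42 members were called in none of the 17 comparisons. They were Mybbp1a, Polr1a, Nop56, Nop10, Utp15, Utp20, Rrp12, Imp4, Nol6, Nop14, Rrp9, Wdr12, Ebna1bp2 and Noc3l, and 7 of them are small subunit factors. The share of all genes called in none is not given here, so the count cannot be read as particular to the members.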

How the data were processed

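The authors deposited log2 signals made with RMA (R 2.15.2), per the submitters' processing notes. From 2 ng of RNA, cDNA was amplified, and 5 ug of it was labelled, per the labels' protocols. The sources used here do not say if the 2 experiments were normalized together, so levels were not compared between them, nor do they give a date or batch. Of 34760 probe sets on 30 arrays, 21640 had 1 gene symbol, 1321 several and 11799 none, and the last 2 kinds were left out. The probe set with the highest mean stood for its gene, which was tested if above the array median on 2 arrays (first experiment) or 3 (second). With limma 3.58.1 (R 4.3.3; lmFit, eBayes), 1 model per experiment took all its arrays, in 17 comparisons, of which 2 were interactions. Precision is limited by the few arrays, 2 to 4 in a group. The code was tested on simulated data. Figures used matplotlib 3.10.9 under python 3.11.15.

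Members and lists were chosen with earlier results of these data known. Values on every array are given for the 2 largest called members per role in IgE GC against naive cells, IgE PC against IgE GC cells and DZ against LZ cells, and for members called against their role group; others were named after their values were seen. At most 3 called genes per other list are named.

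Replicate numbers were checked as a pairing. Deviations of same-numbered samples correlated at -0.11 to 0.222 in the first and 0.002 to 0.199 in the second experiment. The medians were 0.059 and 0.086, against -0.029 and -0.045 for samples of different numbers. The main fits, those of the zones included, did not take the numbers as pairs. No zone count with the numbers as a block is given here, so the zone results hold for the unpaired fit. Every pair exceeded 0.1 only for GFP+ against GFP- IgG1 GC cells (0.109 to 0.154). Alternatives were another filter, probe set rule, normalization, fit, block, and arrays left out.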

Additional observations from a re-analysis of the deposited data

Results flagged for a closer look

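Rrs1 on IgE PC replicate 1 was at 5.065, while the other 3 IgE PC arrays lay between 6.96 and 7.19. The gap to its nearest neighbour, divided by the range of the group, was above Dixon's critical value for 4 samples. It was the only one of the 42 members past that value in the 1 group of 4 arrays, and chance flags about 1 in 20 groups.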

How the results depend on the processing

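Of 83 calls of a member in a comparison, 33 held under every alternative run and 37 when any single array was left out. Over 1151 recomputed calls, 928 stayed past the threshold in the same direction, 221 missed it and 2 turned with the other probe set, which was tried after seeing the data. These were Mrto4 in GFP+ IgG1 GC against naive cells (-0.26, adjusted p 0.607, limma) and Fbl in IgE PC against IgE GC cells (0.44, 0.776). Further quantile normalization left 8 members called in IgE GC against naive cells. Fitting only the groups compared left 8 in IgE GC and 6 in GFP+ IgG1 GC against naive cells. It left 3 in IgG1 PC against naive cells and 4 in IgG1 PC against GFP+ IgG1 GC cells. In such a fit the spread is estimated from the compared groups alone, and so from fewer arrays. Leaving out both arrays that stood apart, chosen after seeing the data, gave 12 in IgG1 PC against GFP+ IgG1 GC cells. The cause of these changes in the counts was not tested.

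With single arrays left out, the counts ran from 5 (without IgE GC replicate 2) to 18 in IgE GC against naive cells, with 9 without naive replicate 3. They ran from 8 (without GFP+ replicate 2; 9 without GFP+ replicate 1) to 21 in GFP+ and from 14 to 22 in GFP- IgG1 GC against naive cells. In IgE PC against naive cells they ran from 7 to 14 (without naive replicate 2), and in IgG1 PC from 7 (without IgG1 PC replicate 1 or naive replicate 3) to 13. They ran from 2 to 6 in IgE PC against IgE GC, from 3 to 12 in IgG1 PC against GFP+ IgG1 GC, and from 0 to 1 in IgE PC against IgG1 PC. In the other comparisons they stayed at 0. With the replicate number as a block, the GFP+ against GFP- IgG1 GC comparison had 0 members called, as without it. There every same-numbered pair correlated above 0.1. In the other comparisons that cutoff was not met by every pair, which does not settle whether the numbers pair the samples. The block gave 17, 19 and 19 members in IgE GC, GFP+ IgG1 GC and GFP- IgG1 GC against naive cells. It gave 12 and 10 in IgE PC and IgG1 PC against naive cells, and 6 and 9 in the PC against GC comparisons of IgE and IgG1. Signal near the floor can compress fold changes of dim members, which was not tested here. Rrp9, a dim member, also varied widely between arrays of a group. It was at 5.69, 6.48 and 8.22 in GFP- IgG1 GC cells and at 6.93, 5.47 and 5.44 in naive cells.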
